A study of Mus musculus with 12 samples.

Results

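The regions described here are stretches of the mouse genome that carried NKX2-1 peaks in lung epithelial cells but no peak of PRDM16, PRDM3 or H3K4me3, called PRDM-free distal regions below. They were selected on the deposited peak lists by position. An NKX2-1 region was a stretch of at least 20 bases on chromosomes 1 to 19 covered by peaks in at least 2 of 3 NKX2-1 libraries. It was kept when it shared no base with a peak of the 2 PRDM16 libraries, the 1 PRDM3 library or any of the 3 H3K4me3 libraries. Of 23273 NKX2-1 regions, 1837 (7.89%) met this rule. Another 6156 lay outside H3K4me3 peaks but shared at least 1 base with a PRDM peak, and are called PRDM-overlapped distal regions. The PRDM-free regions were thus 23.0% of all 7993 distal regions (Wilson 95% interval 22.1% to 23.9%). The remaining NKX2-1 regions lay over H3K4me3, 865 of them without and 14415 with a PRDM peak. The absence of PRDM and H3K4me3 peaks is how the regions were defined, not a result.

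All groups came from epithelial cells of wild-type C57Bl6 mice at E17.5, taken from pooled fetal lungs with EpCAM+ microbeads. They had no treatment and no genetic change. CUT&RUN, which releases chromatin beside a protein by tethering a nuclease to its antibody, was run on 100000 cells per reaction. The NKX2-1 group had 3 libraries, PRDM16 2 and PRDM3 1, with H3K4me3 as a promoter mark in 3, and 3 IgG samples were not analysed here. PRDM16 replicate 1 used a rabbit antibody and replicate 2 a sheep antibody. The labels do not say that replicates were separate pools of animals, so the spread between libraries may be technical. H3K4me3 peaks lay within 1 kb of an end of Epcam, Cdh1, Krt8, Krt18 and Nkx2-1 in 3 of 3 libraries. They lay near Kdr, an endothelial gene, also in 3 of 3, near Col1a1 in 2, near Col3a1 and Cdh5 in 1 each, and near Pdgfra, Pecam1, Ptprc, Cd68 and Csf1r in 0.

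NKX2-1 is a homeodomain transcription factor that is required for lung epithelial identity and acts in both alveolar cell types, the flat gas-exchanging type 1 (AT1) cells and the surfactant-making type 2 (AT2) cells. It is also a regulator in the thyroid and in forebrain interneurons. PRDM16 and PRDM3, the product of Mecom, are related zinc-finger proteins that bind chromatin and recruit corepressors and methyltransferases. A distal region without H3K4me3 is a place where an enhancer may lie, though a peak alone does not show activity. The series asked where NKX2-1 and the PRDM proteins bind in these cells, and the PRDM-free regions are the part of distal NKX2-1 binding outside the deposited PRDM peaks.

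Sequence could be read only where a PRDM-free region reached into a RefSeq promoter window, 250 bases before to 50 bases after a gene start (GRCm38.p6, the assembly of mm10). This held for 20 regions and 21 windows of 21 genes, and each of the sequences below is the part of the window inside the region, written along the gene. They are shown because they are the bases under NKX2-1 peaks at 5 such starts: B3galt5 and Gm30509 hold the NKX2-1 core motif, Deup1 is one of the genes with the most PRDM-free regions, Apela had a stronger peak in replicate 1, and Fcgrt had the highest replicate 1 fold of the 20 but at the edge of a PRDM peak. Capitals mark CTCAAG or, on the other strand, CTTGAG.
B3galt5 (chr16:96235796-96235850, + strand): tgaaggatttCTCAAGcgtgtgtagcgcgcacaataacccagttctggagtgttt
Gm30509 (chr17:31871120-31871187, - strand): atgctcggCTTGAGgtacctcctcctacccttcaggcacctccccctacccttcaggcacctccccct
Deup1 (chr9:15627829-15627962, - strand): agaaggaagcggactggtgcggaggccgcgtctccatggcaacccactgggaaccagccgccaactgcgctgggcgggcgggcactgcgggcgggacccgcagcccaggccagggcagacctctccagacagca
Apela (chr8:65037498-65037586, - strand): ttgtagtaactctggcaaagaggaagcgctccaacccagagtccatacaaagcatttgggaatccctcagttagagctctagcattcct
Fcgrt (chr7:45103937-45104072, - strand): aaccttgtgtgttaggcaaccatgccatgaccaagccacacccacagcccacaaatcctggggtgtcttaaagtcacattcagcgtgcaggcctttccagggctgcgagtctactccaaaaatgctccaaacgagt

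B3galt5 encodes a galactosyltransferase. Its region had an NKX2-1 fold enrichment, the deposited ratio of a peak's signal to background, of 3.36 in replicate 1 and 2.44 in replicate 2, with no peak in replicate 3. The deposited −log10 q there was 1.52 and 0.0601, so only the first is under a q of 0.05. At Apela, which encodes a peptide hormone of the apelin receptor, fold enrichment was 4.40 in replicate 1 and 2.40 in replicate 3, with −log10 q of 4.06 and 0.114. At Fcgrt, the neonatal Fc receptor gene, it was 5.76 in replicate 1 and 2.40 in replicate 3, with −log10 q of 5.15 and 0.114, and a PRDM peak lay 6 bases away. In these 3 genes replicate 1 passed a q of 0.05, and the second library's peak stood at the lowest −log10 q of its list.

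The same 21 windows were searched whole, on both strands, for short motifs, none of which contains another. CTCAAG was in 4 of 21 windows (19%), against 15.7% of all 31396 windows of that length on the same chromosomes. It lay inside the region at B3galt5 and Gm30509, and only elsewhere in the window at Adamts12 and Gm14308. The forkhead string TGTTTAC was in 4 (19%, against 3.71% of all windows) and the GATA string AGATAA in 3 (14.3%, against 11.2%). The Sp/KLF string GGGCGG was in 8 (38.1%, against 36%), the E-box CACGTG in 3 (14.3%, against 7.14%) and the TEAD string CATTCC in 2 (9.52%, against 14.6%). The AP-1 string TGANTCA and the NFI string TTGGCA were in 1 each (4.76%, against 7.84% and 14.1%). Some windows share few bases with a region, 3 at Bcan, and the windows of Ubxn10 and Pla2g2c overlap each other. With 21 windows these are descriptions only, and a match is not a binding site.

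Few PRDM-free regions had a peak in all 3 NKX2-1 libraries. Peaks of replicates 2 and 3 without replicate 1 made 799 of the 1837 PRDM-free regions (43.5%, Wilson 95% interval 41.2% to 45.8%), against 228 of 6156 PRDM-overlapped distal regions (3.70%, 3.26% to 4.21%). Replicates 1 and 3 made 553 PRDM-free regions (30.1%), against 2773 PRDM-overlapped ones (45.0%). Replicates 1 and 2 made 458 PRDM-free regions (24.9%), against 2226 PRDM-overlapped ones (36.2%). All 3 libraries had a peak in 27 PRDM-free regions (1.47%, 1.01% to 2.13%), against 929 PRDM-overlapped regions (15.1%, 14.2% to 16.0%). The bars by library pair show this shift towards the pair without replicate 1. Peak names fall into a pair of letter series, and all PRDM lists share the series of NKX2-1 replicate 1 while replicates 2 and 3 carry the other. Whether that is a batch, and its part in these shares, was not tested. These intervals treat regions as units and carry counting error alone. With 1 NKX2-1 library left out and both others required, the number of PRDM-free regions was 843 without replicate 1, 589 without replicate 2 and 497 without replicate 3.

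**Figure D1:**
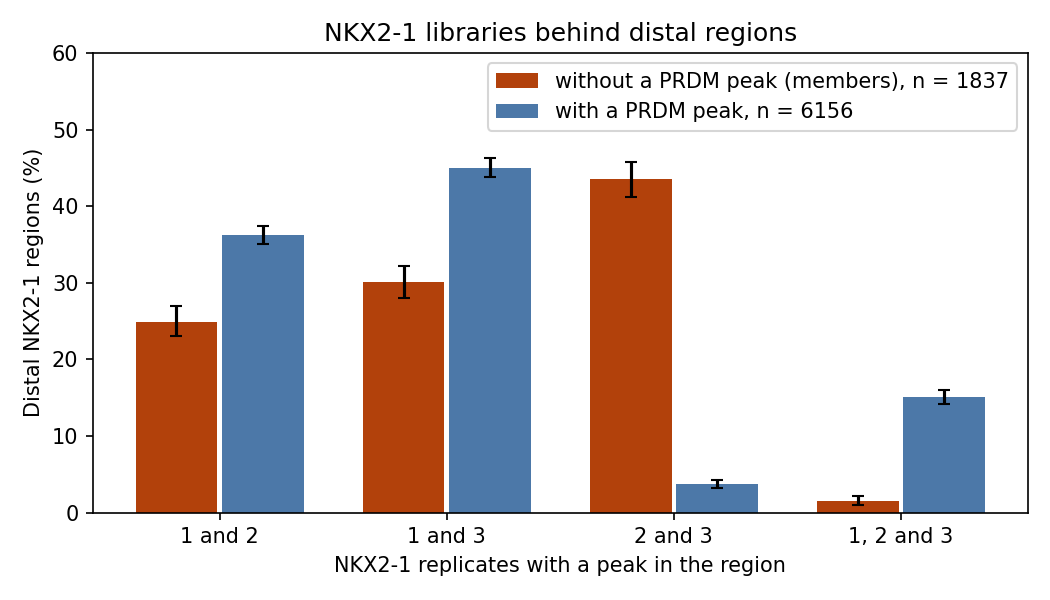
Share of distal NKX2-1 regions (%, vertical axis) by the NKX2-1 replicates with a peak in the region (horizontal axis), for regions without and with a PRDM peak, with Wilson 95% intervals over regions as error bars. Replicates 2 and 3 alone account for 43.5% of the 1837 regions without and 3.70% of the 6156 regions with a PRDM peak.

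The PRDM-free regions had lower median fold enrichment than PRDM-overlapped regions in each NKX2-1 library. In replicate 1 their median fold enrichment was 3.39 over 1038 regions with a peak, against 4.85 over 5928 PRDM-overlapped regions. In replicate 2 it was 2.44 over 1284, against 3.26 over 3383. In replicate 3 it was 2.40 over 1379, against 3.20 over 3930. The PRDM-free median was the lower one in all 3 libraries, though the ranges overlapped widely, 1.20 to 18.6 against 1.18 to 25.5 in replicate 1. Over all autosomal peaks of each list the median was 4.03, 2.44 and 2.40 in replicates 1, 2 and 3. In replicates 2 and 3 the PRDM-free median thus equalled that of the whole list. Read depth is unknown from peak lists, fold enrichment is comparable only within a library, and the PRDM-free regions were also narrower, with a median width of 180 against 264 bases. The part of width in this difference was not tested.

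The deposited −log10 q gave the same order. In replicate 1 its median was 1.52 in PRDM-free regions and 4.16 in PRDM-overlapped regions. In replicate 2 it was 0.0601 in PRDM-free and 0.686 in PRDM-overlapped regions, and in replicate 3 it was 0.114 in PRDM-free and 0.764 in PRDM-overlapped regions. A q under 0.05 was reached by 68.7% of PRDM-free peaks in replicate 1, 5.22% in replicate 2 and 7.03% in replicate 3, against 91.2%, 23.3% and 25.9% of PRDM-overlapped peaks. Most PRDM-free peaks of the weaker libraries stood at the lowest −log10 q their list holds, 62.3% in replicate 2 and 56.8% in replicate 3, against 35.3% and 30.8% of PRDM-overlapped peaks. Every library with a peak passed a q of 0.05 in 62 PRDM-free regions (3.38%), against 1124 PRDM-overlapped regions (18.3%). A −log10 q of at least 5 was reached by 114, 2 and 3 PRDM-free peaks in replicates 1, 2 and 3, against 2405, 39 and 67 PRDM-overlapped peaks.

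Many fold values lay on a ladder of whole multiples of 1 step, within a tolerance of 2e-4. The step was 0.678 in replicate 1, 0.814 in replicate 2 and 0.799 in replicate 3. In replicate 1 the multiple 5, a fold of 3.39 and thus the PRDM-free median, held 12% of PRDM-free peaks and 3.85% of PRDM-overlapped peaks. In replicate 2 the multiple 3, a fold of 2.44, held 41.3% of PRDM-free peaks and 21.2% of PRDM-overlapped peaks, and the multiple 5, a fold of 4.07, held 3.27% and 11.4%. In replicate 3 the multiple 3, a fold of 2.40, held 40.1% of PRDM-free and 21.2% of PRDM-overlapped peaks, and the multiple 5, a fold of 4.00, held 3.84% and 12%. Over the whole lists the multiple 3 held 38.7% of peaks in replicate 2 and 37.7% in replicate 3. The multiple 6 held 0.467% of PRDM-free peaks, against 4.17% of PRDM-overlapped peaks and 1.63% of the whole list in replicate 2, and 1.16%, against 4.15% and 1.93%, in replicate 3. On the multiple 6, PRDM-free peaks were thus rarer than both PRDM-overlapped peaks and the whole list in replicates 2 and 3. Replicate 1 had the reverse order on the multiple 6, a fold of 4.07. There it held 6.45% of PRDM-free peaks, against 4.44% of PRDM-overlapped peaks and 5.62% of the whole list.

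**Figure D2:**
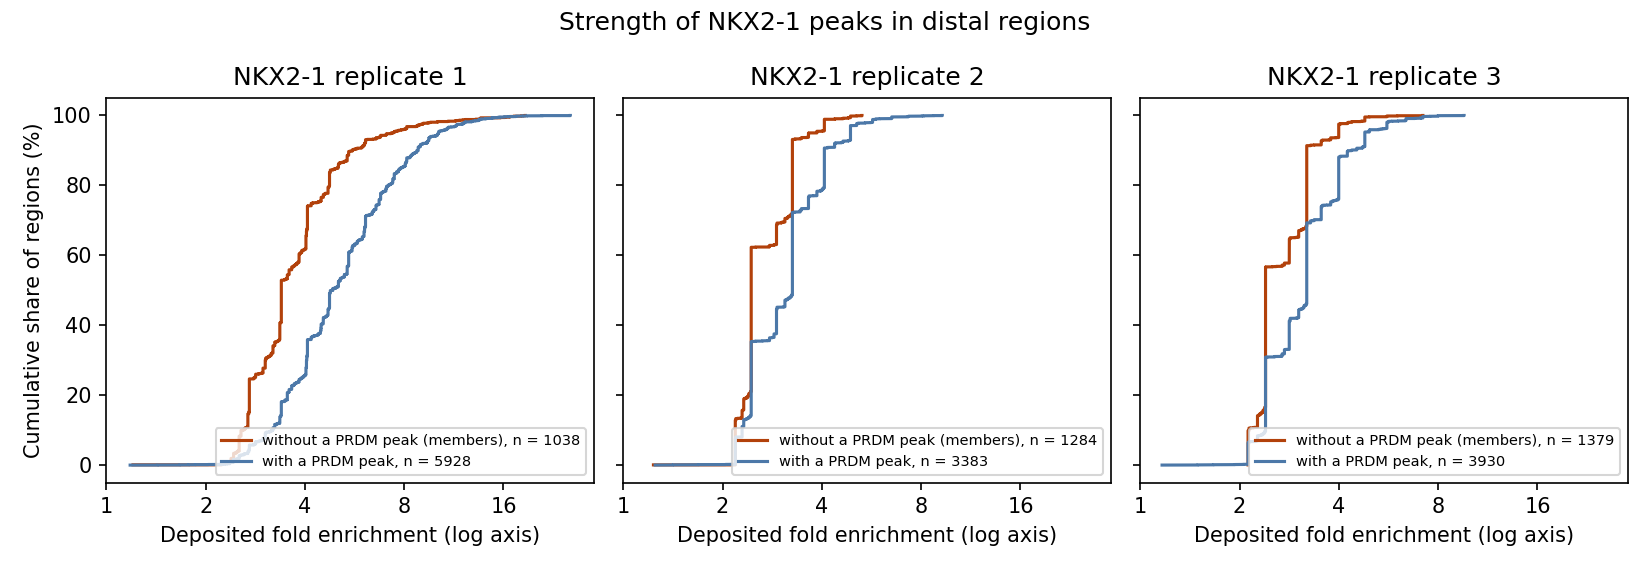
Cumulative share of distal NKX2-1 regions (%, vertical axis) by deposited fold enrichment of the NKX2-1 peak (log horizontal axis), 1 panel per NKX2-1 replicate, for regions without and with a PRDM peak. The line of regions without a PRDM peak lies to the left in all 3 panels, with medians of 3.39 against 4.85, 2.44 against 3.26 and 2.40 against 3.20, and steps appear in each panel.

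The strongest PRDM-free regions were mostly the flanks of NKX2-1 peaks whose other bases met PRDM or H3K4me3. A region is only the part of a peak shared by 2 libraries, so the peak itself can extend further. Of the 114 regions with a −log10 q of at least 5 in replicate 1, 94 had an NKX2-1 peak that met a PRDM peak and 57 one that met an H3K4me3 peak. At Ing1, which encodes an inhibitor-of-growth chromatin protein, the region chr8:11559489-11559568 had fold enrichment of 17.2 in replicate 1 and 2.44 in replicate 2. It lay 107 bases from an H3K4me3 peak. At Tcf3, an E-protein transcription factor gene, a region of 21 bases had 18.6 in replicate 1 and 3.26 in replicate 2, and lay 305 bases from a PRDM peak. At Ercc1, a DNA repair gene, the values were 18.1 and 2.44, 48 bases from an H3K4me3 peak. These genes were chosen after their values were seen.

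Regions whose NKX2-1 peaks met no PRDM or H3K4me3 peak at any base are called free-standing, a class added after seeing the data. They numbered 1389 of 1837 (75.6%, 73.6% to 77.5%), while peaks over 433 regions met a PRDM peak and over 109 an H3K4me3 peak. Free-standing regions had median fold enrichment of 3.39, 2.44 and 2.40 in replicates 1, 2 and 3, and the other 448 had 4.05, 2.61 and 2.74. A −log10 q of at least 5 in replicate 1 was reached by 20 free-standing regions. The free-standing share was 93.1% among regions of replicates 2 and 3, and 62.7% in each pair that includes replicate 1.

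A few free-standing regions were strong, and these too were chosen after their values were seen. At chr12:8099593-8100018, whose nearest protein-coding gene is Apob at 82966 bases, fold enrichment was 7.30 in replicate 1 and 7.19 in replicate 3, with −log10 q of 7.89 and 6.45. A PRDM peak lay 75 bases away. At chr14:120661292-120661578, 154241 bases from Rap2a, a small GTPase gene, it was 9.51 in replicate 1 and 2.40 in replicate 3, and the nearest PRDM peak was 9917 bases away. Outside Tiparp, which encodes an ADP-ribosyltransferase, chr3:65517183-65517387 had 7.46 in replicate 1 and 3.20 in replicate 3. It lay 11162 bases from the gene end and 48 bases from a PRDM peak. Both libraries were strong only at the Apob region among these. Of regions in replicates 2 and 3 alone, the highest ranked was chr12:97061451-97061781, 1140671 bases from Galc, with fold enrichment of 5.29 and 4.65 and −log10 q of 8.10 and 5.62. One inside Gata3, a transcription factor gene, had 3.64 and 4.79, with −log10 q of 0.954 and 2.69. The region chr9:3000370-3000614 had the highest −log10 q of the free-standing regions in replicate 1, 26.7, with 17.2 in replicate 2. Its fold was only 1.20 and 1.23, and it lay 334739 bases from the nearest protein-coding gene. It was thus strong by −log10 q and weak by fold. No filter for repeats or artefact-prone stretches was applied here, so its −log10 q is not read as binding.

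Of the 27 regions with a peak in all 3 libraries, 12 were named by the mean rank of their −log10 q within each list. The top one, chr12:92618568-92619170, lay 264849 bases from Gm40892 and had fold enrichment of 8.06, 4.07 and 4.79 in replicates 1, 2 and 3. A PRDM peak lay 211 bases from it. Inside Clstn2, a gene of the calsyntenin family of synaptic adhesion proteins, chr9:97757206-97757666 had 7.97, 4.07 and 3.20, and it was free-standing, 5252 bases from the nearest PRDM peak. Inside Helz, an RNA helicase gene, a region had 6.78, 4.07 and 3.20, with a PRDM peak 61 bases away. Inside Rgs22, which encodes a regulator of G-protein signalling, the values were 4.74, 3.26 and 5.59. A q under 0.05 was reached in all 3 libraries in the first, in replicates 1 and 2 at Clstn2 and Helz, and in replicates 1 and 3 at Rgs22.

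The other 8 were nearest to Sema6a, Rhoq, Gins1, Cdc73, Cdh12, Espl1, Mtnr1b and Vcan. Near Sema6a, an axon guidance gene, fold enrichment was 6.06, 2.44 and 4.95 in replicates 1, 2 and 3, and the gene end was 285687 bases away. Near Vcan, the versican gene of the extracellular matrix, it was 4.07, 2.44 and 3.54, at 2888 bases. Inside Gins1, which encodes a subunit of a DNA replication complex, it was 3.20, 4.07 and 3.20. Inside Espl1, the separase gene, it was 2.61, 4.07 and 3.02. A q under 0.05 was reached in replicates 1 and 3 near Sema6a, in replicate 1 alone near Vcan, in replicates 1 and 2 at Gins1 and in replicate 2 alone at Espl1. Of the 12, 6 were free-standing.

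The gap from a PRDM-free region to the nearest PRDM peak varied widely. The PRDM lists are dense, with 108677 and 77421 autosomal peaks for PRDM16 replicates 1 and 2 and 51128 for PRDM3. Gaps from other positions were not measured, and the rule used these same peaks, so the gaps are descriptions only. The nearest PRDM peak was a median of 1604 bases away, lay within 1 kb of 788 regions (42.9%, 40.6% to 45.2%) and beyond 10 kb of 351 (19.1%, 17.4% to 21.0%). An H3K4me3 peak lay within 1 kb of 183 regions (9.96%), against 561 PRDM-overlapped regions (9.11%). The median gap to a PRDM peak was 441 bases for the pair of replicates 1 and 2, 481 for the pair of 1 and 3, and 5087 for the pair of 2 and 3. Regions without replicate 1 thus had the longest median gap of the 3 pairs. At the edge of the rule, 142 regions had a PRDM peak within 50 bases, with median fold enrichment of 4.00, 2.91 and 2.40 in replicates 1, 2 and 3. The 295 distal regions left out with 1 to 50 bases under a PRDM peak had 4.07, 2.44 and 2.83. Of the stretches kept, 58 were 20 to 29 bases long, and 50 of 10 to 19 bases were left out.

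**Figure D3:**
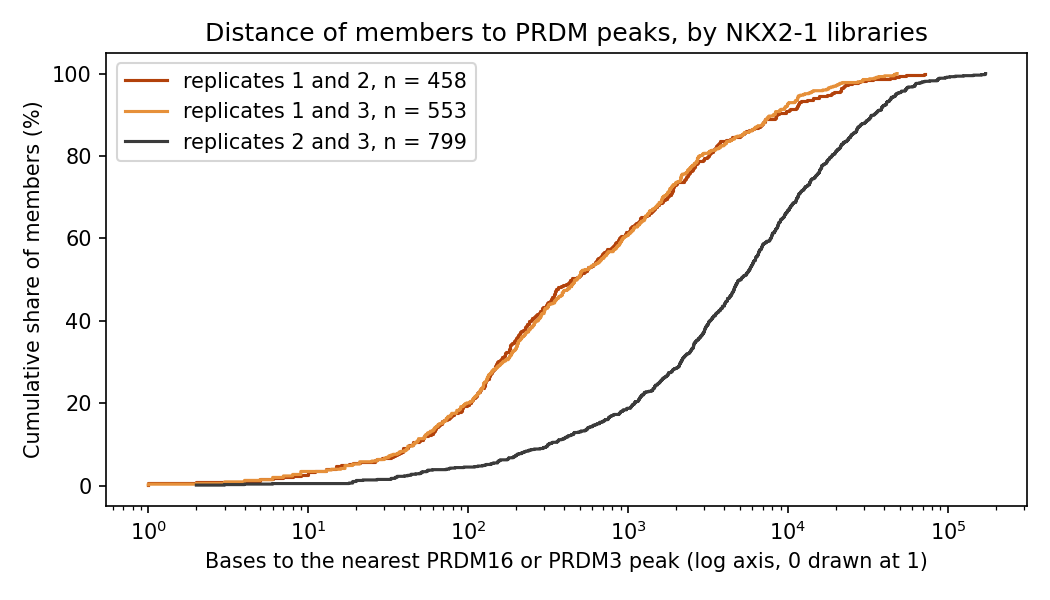
Cumulative share of the PRDM-free regions (%, vertical axis) by the number of bases to the nearest PRDM16 or PRDM3 peak (log horizontal axis, 0 drawn at 1), 1 line per pair of NKX2-1 replicates. The lines of the pairs with replicate 1 run together, with medians of 441 and 481 bases, and the line of replicates 2 and 3 lies to the right with a median of 5087 bases.

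Relative to protein-coding genes, 883 PRDM-free regions had their midpoint inside a gene (48.1%, 45.8% to 50.4%), against 3283 PRDM-overlapped regions (53.3%, 52.1% to 54.6%). Within 1 kb of a gene end lay 114 (6.21%), against 259 PRDM-overlapped regions (4.21%). The share of all NKX2-1 regions was 43.4%, but these include regions over the promoter mark H3K4me3, which the rule removed. That contrast therefore follows from the rule and is not a result. Over 100 kb from any gene end lay 466 (25.4%, 23.4% to 27.4%), against 987 PRDM-overlapped regions (16.0%, 15.1% to 17.0%). The median distance to the nearest gene end was 29483 bases, against 23934. Strand and exons are not in the gene table, so introns, exons and the ends of a gene are not told apart. By chromosome the PRDM-free share of distal regions ran from 17.1% on chromosome 19 to 26.1% on chromosome 7.

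The difference in position was compared over the 3 NKX2-1 libraries. The share inside a gene was 53.6%, 45.9% and 46.0% of PRDM-free regions in replicates 1, 2 and 3, against 53.4%, 54.1% and 52.6% of PRDM-overlapped regions. The means were 48.5% ± 4.41 and 53.4% ± 0.722 (SD, n = 3 libraries each), a difference of −4.88 percentage points. In replicate 1 the classes were nearly equal, and in replicates 2 and 3 the PRDM-free share was lower. The exact two-sided paired permutation p was 0.5, or 0.75 after Benjamini-Hochberg adjustment over 3 tests, which include the unplanned H3K4me3 comparison below. Median distances were 20786, 33104 and 31527 bases in replicates 1, 2 and 3, against 23948, 24277 and 24590. The difference of the means, 4201 bases (28472 ± 6703 against 24272 ± 321, SD, n = 3), also had an exact paired permutation p of 0.5 (adjusted 0.75). With 3 pairs the smallest possible p is 0.25, and each region counts in at least 2 libraries, so the libraries are not independent.

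The lower share and longer distance lay in regions of replicates 2 and 3. Of those PRDM-free regions 40.9% (37.6% to 44.4%) were inside a gene and their median distance was 44296 bases, against 52.2% (45.7% to 58.6%) inside a gene for PRDM-overlapped regions of the same pair. In the pair of replicates 1 and 2 the share inside a gene was 54.4% of PRDM-free and 54.6% of PRDM-overlapped regions, and in the pair of 1 and 3 it was 53.2% and 52.4%, each within the other's interval. The median distance of PRDM-free regions was 21704 bases in the first of these pairs and 20109 in the second, and PRDM-free minus PRDM-overlapped it was −1271 and −3292 bases. The longer distance of the pooled PRDM-free regions was therefore not present in either pair that includes replicate 1.

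**Figure D4:**
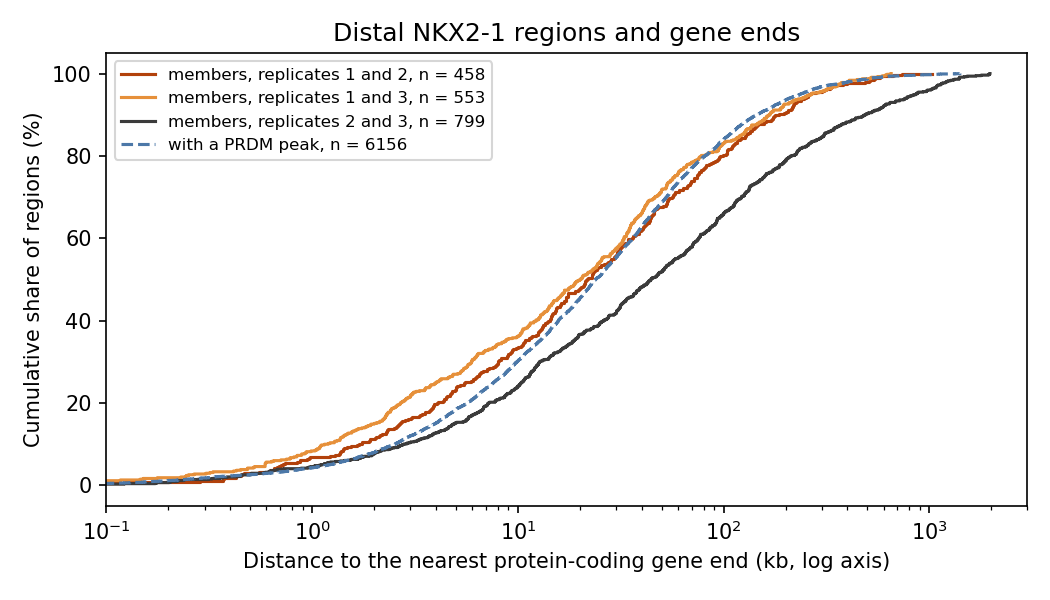
Cumulative share of distal NKX2-1 regions (%, vertical axis) by distance to the nearest protein-coding gene end (kb, log horizontal axis), for PRDM-free regions of each pair of NKX2-1 replicates and for all PRDM-overlapped regions (dashed). PRDM-free regions of replicates 2 and 3 lie to the right, with a median of 44296 bases, and the other lines run close together.

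A region was linked to the protein-coding gene with the nearest end when that end was within 50 kb. PRDM-free regions were so linked to 1073 of 21887 genes, 4.90% of all genes, and PRDM-overlapped distal regions to 2998 genes, 13.7%. Of the genes, 1010 had 1 PRDM-free region, 61 had 2, and Deup1 and Snx13 had 3. PRDM-overlapped distal regions were also linked to 360 of them, which is 33.6% of the genes with a PRDM-free region and 12% of the genes with a PRDM-overlapped one. Free-standing regions alone were linked to 786 genes. An H3K4me3 peak lay within 1 kb of an end of 800 of the 1073 genes (74.6%, 71.9% to 77.1%), against 75.6% (74.0% to 77.1%) of genes with a PRDM-overlapped region and 59.3% of all genes. Over the libraries these shares were 79.0%, 71.7% and 74.2% for genes with PRDM-free regions, against 75.6%, 77.3% and 75.5%. The difference of −1.19 percentage points had an exact paired permutation p of 0.75 (adjusted 0.75, n = 3). This comparison was not among those planned, although it counts as 1 of the 3 tests of the adjustment. The H3K4me3 peaks in this comparison are the ones the rule used to choose both classes of regions. No conclusion is therefore drawn from it. Among genes linked through replicates 2 and 3 the share was 67.4% (62.7% to 71.8%).

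Deup1, a gene associated with centriole amplification in multiciliated cells, had its 3 regions inside the gene, and no H3K4me3 peak lay near its ends. The region at its start, whose sequence is given above, had fold enrichment of 4.07 in both replicates 1 and 2, with −log10 q of 2.46 and 1.61. The region near the other end, chr9:15559981-15560187, had 3.26 and 2.12 in replicates 2 and 3, and the one between had 2.44 and 2.40. All 3 were free-standing, with PRDM peaks at least 8235 bases away, and only the first passed a q of 0.05 in a library. Snx13, a sorting nexin gene, had regions with 3.39 and 3.26 in replicates 1 and 2, 2.53 and 2.19 in replicates 1 and 2, and 3.26 and 2.40 in replicates 2 and 3. Of these, 1 peak passed a q of 0.05, that of replicate 1 inside the gene.

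Abi1, Acot7, Aff1, Aqp1, Atg7 and Calm2 each had 2 regions and complete the 8 genes with the most, ties taken by alphabet. At Aqp1, a water channel gene, chr6:55344784-55344988 had fold enrichment of 3.26 and 3.20 in replicates 2 and 3, and chr6:55346465-55346908 had 4.70 in replicate 1 and 2.40 in replicate 3. Both lay inside the gene and were free-standing, over 1 kb from the nearest PRDM peak. At Acot7, an acyl-CoA thioesterase gene, replicate 1 had 4.75 in one region and 3.39 in the other, with 2.44 in replicate 2 in both. At Calm2, a calmodulin gene, 1 region had 2.32 and 2.83 in replicates 2 and 3 and the other 3.36 and 2.44 in replicates 1 and 2.

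Of 353 genes in 19 lists, of lung and of other tissues, 24 were linked to a PRDM-free region (6.80%, beside 4.90% of all genes). The key factor genes Nkx2-1, Prdm16 and Mecom had 0, and PRDM-overlapped distal regions numbered 1, 2 and 2 there. The surfactant protein genes Sftpc and Sftpb also had 0, with 0 and 3 PRDM-overlapped regions, as did the AT1 genes Hopx and Ager, with 8 and 0. Of 25 AT2 genes, 0 were linked to a PRDM-free region and 9 (36%) to a PRDM-overlapped one. The AT2 count of 0 became 2 without PRDM16 replicate 2, and stayed 0 without PRDM16 replicate 1.

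Of 25 AT1 genes, 4 had a PRDM-free region (16.0%) and 17 a PRDM-overlapped one (68.0%, beside a background of 13.7%). Near Emp2, an epithelial membrane protein gene, fold enrichment was 4.07 in replicate 1 and 3.20 in replicate 3, with −log10 q of 2.46 and 0.764. Near Sema3e, a semaphorin gene, it was 3.26 and 2.83 in replicates 2 and 3, with −log10 q of 0.686 and 0.421. At Timp3, an inhibitor of metalloproteinases, 1 region had 2.49 and 2.40 in replicates 1 and 3 and the other 2.19 and 2.83 in replicates 2 and 3. Inside Gprc5a, a retinoic-acid-induced receptor gene, it was 2.44 and 2.40 in replicates 2 and 3. Of these regions only that of Emp2 passed a q of 0.05 in a library.

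Of 30 lung epithelial transcription factor genes, 6 had a PRDM-free region (20%) and 18 a PRDM-overlapped one (60%). Near Sox2, which marks proximal airway epithelium, fold enrichment was 4.03 in replicate 1 and 3.20 in replicate 3, with −log10 q of 2.44 and 0.764, 2262 bases from the gene end. Inside Tfcp2l1, a grainyhead-related factor gene, it was 2.44 and 4.00 in replicates 2 and 3, with −log10 q of 0.0601 and 1.69. Near Gata6, a zinc-finger factor gene of lung endoderm, it was 2.44 and 3.20 in replicates 2 and 3. Near Foxa2, a forkhead factor gene, it was 4.07 in replicate 1 and 2.27 in replicate 3, 35275 bases from the gene end. Nfib had 2 regions and Nfia 1, with fold enrichment of 2.40 to 3.39. All regions of these 6 genes were free-standing, and those of Sox2, Tfcp2l1, Foxa2 and Nfib included a peak with q under 0.05 in 1 library. The counts of 4 AT1 and 6 transcription factor genes depended on single libraries and weak peaks. Without NKX2-1 replicate 3 both were 0, without replicate 2 they were 2 and 3, and without replicate 1 they were 3 and 4. Both were also 0 with NKX2-1 peaks limited to −log10 q from 1.3. With PRDM peaks limited to −log10 q from 1.3 the counts rose to 7 and 10. They were 5 and 9 without PRDM16 replicate 1, and 6 and 7 without PRDM16 replicate 2. The lists were chosen with results known, and no test was made.

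The remaining lists held 14 further genes among them. Forebrain interneuron genes had 3 of 16 (18.8%), as many as with PRDM-overlapped regions. These were Npy, which encodes neuropeptide Y, with fold enrichment of 2.91 and 3.20 in replicates 2 and 3, the LIM homeobox gene Lhx6, with 5.37 in replicate 1 and 2.40 in replicate 3, and Sox6, with 3.03 and 2.44 in replicates 1 and 2. The count of 3 was 1 without any one of the NKX2-1 replicates. Endothelial genes had 2 of 18, Cldn5 and Tek, and branching signal genes had 2 of 25. Near Egfr, the epidermal growth factor receptor gene, fold enrichment was 4.86 in replicate 1 and 2.44 in replicate 2. Inside Bmpr1a, a bone morphogenetic protein receptor gene, it was 2.98 and 2.44 in the same replicates.

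Surfactant lipid genes had 1 of 26, Elovl6, a fatty acid elongase gene with 2 regions in replicates 2 and 3 of fold enrichment 2.33 and 2.29, and 3.26 and 2.40. PRDM partner and corepressor genes had 1 of 12 (Smad3), ciliated cell genes 1 of 19 (Dnah11), junction and keratin genes 1 of 20 (Ocln), mesenchymal genes 1 of 20 (Pdgfra), gut genes 1 of 16 (Onecut2) and liver genes 1 of 18 (Serpina1a). Inside Pdgfra, a mesenchymal growth factor receptor gene, replicate 1 reached 8.70 and replicate 2 2.44, but that peak was not free-standing, 65 bases from an H3K4me3 peak. Airway secretory (15 genes), neuroendocrine (16), basal (10), immune and blood (20), thyroid (12) and housekeeping (20) lists had 0. Without PRDM16 replicate 1 these counts were 2, 1, 0, 1, 3 and 0, in that order, so several depended on 1 PRDM library. No list was tested against the background of 4.90%.

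**Figure D5:**
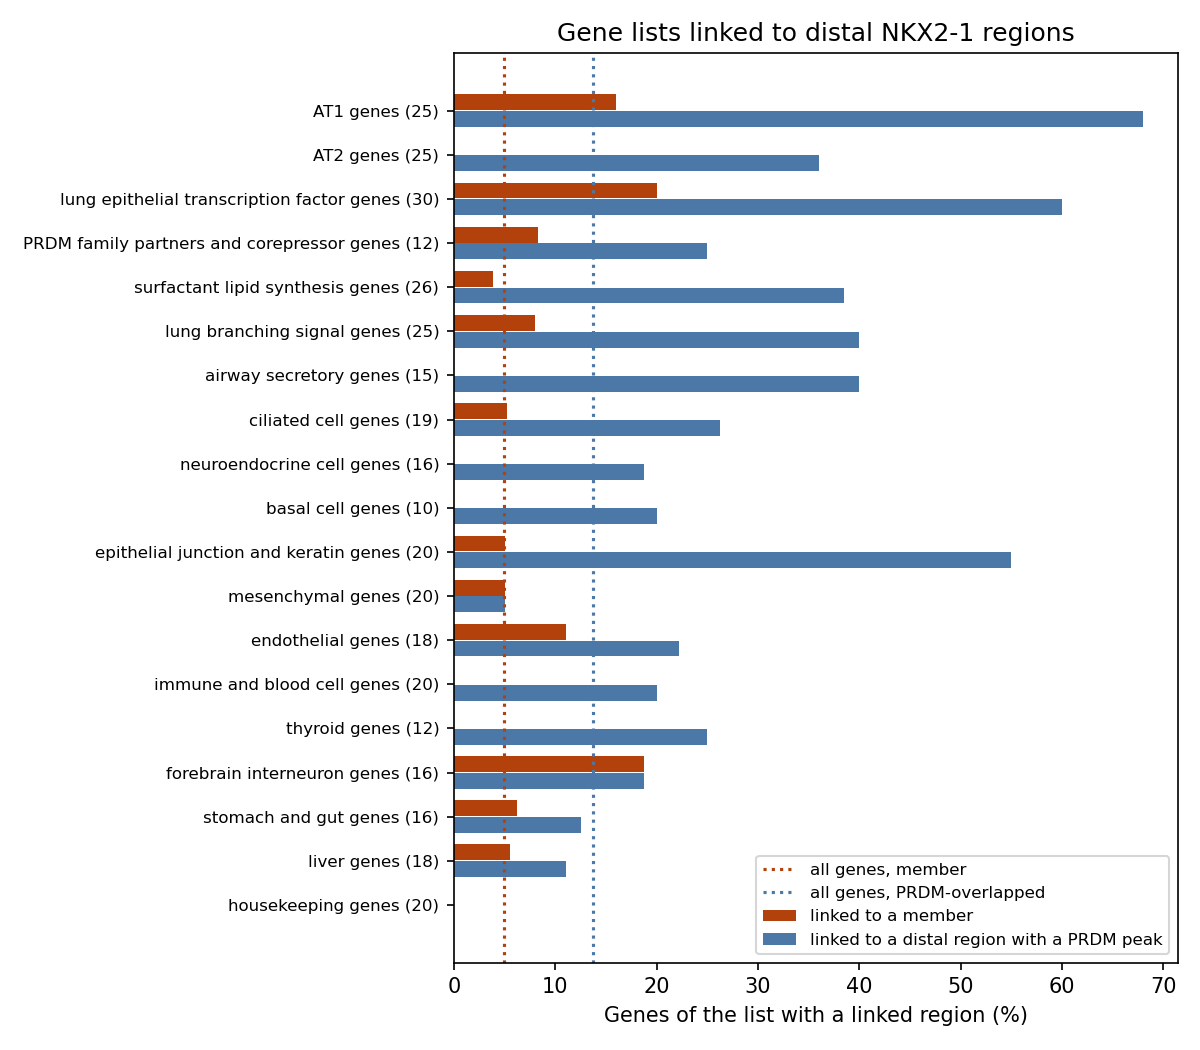
Share of the genes of each list (%, horizontal axis; list size in brackets) linked within 50 kb to a PRDM-free distal region or to a PRDM-overlapped distal region. Dotted lines mark the shares of all 21887 genes, 4.90% and 13.7%, and the transcription factor, forebrain interneuron and AT1 lists reach 20%, 18.8% and 16.0% for PRDM-free regions, against 60%, 18.8% and 68.0% for PRDM-overlapped regions.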

How the data were processed

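CUT&RUN peaks were analysed from 9 of 12 samples, 1 deposited list per sample, with groups and replicate numbers taken from the labels. The submitters' processing notes name Trimmomatic, Bowtie2, MACS2 and HOMER, with mm10 as the build and no versions. Any control library for the calls was not given in the sources used here. Each deposited fold enrichment is the ratio of peak signal to background and is the authors' value, as are the deposited −log10 p and −log10 q. The NKX2-1 lists hold many peaks of low confidence: 76.4%, 11.0% and 13.2% of their autosomal peaks had q under 0.05 in replicates 1, 2 and 3. Peak lists give no read depth.

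Peaks were intersected by position with code tested on simulated intervals. Where several peaks of a library met a region, the one with the highest −log10 q gave its values. An overlap was 1 shared base or more. Gene positions and promoter sequences came from RefSeq (GRCm38.p6). The paired test flips signs over the 3 NKX2-1 libraries, since a replicate number marks the same library in both classes. The regions, gene lists and tests were chosen with earlier results of these data known. Named genes are the 12 regions with peaks in all 3 libraries of highest mean within-list percentile of −log10 q, the 8 genes with the most linked regions, up to 3 genes per list, and Nkx2-1, Prdm16, Mecom, Foxa2, Sftpc, Sftpb, Hopx and Ager. Other named genes were chosen after their values were seen. Alternatives were stricter NKX2-1 and PRDM peaks, equal-length lists, other margins, widths, gene sets and links, and each library left out. Python 3.11.15, numpy 2.4.6, pandas 2.3.3, scipy 1.17.1, statsmodels 0.14.6 and matplotlib 3.10.9 were used.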

Additional observations from a re-analysis of the deposited data

How the results depend on the processing

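The number of PRDM-free regions, 1837, depended on weak peaks of NKX2-1 replicates 2 and 3. It was 45 when all 3 libraries had to cover the stretch. With NKX2-1 peaks limited to −log10 q values from 1.3, 2 and 5 upwards it was 69, 16 and 3. It was 117 when each NKX2-1 list kept its 20000 strongest peaks, and 1029 with no PRDM or H3K4me3 peak within 1 kb. In all but the last setting the stretches were redrawn, so they need not lie within the 1837 regions. Of those 1837, only 27 had a peak in all 3 libraries. The share of distal regions, 23.0%, was 4.39%, 4.46%, 2.84%, 3.75%, 5.39% and 14.2% under these 6 settings, in that order. It was 29.4% with PRDM peaks limited to −log10 q from 1.3, and 21.6% and 19.4% with stretches of at least 50 and 100 bases. For free-standing regions it was 18.4%, of a total that leaves out the other 448 PRDM-free regions. The share inside a gene was 44.4% in all 3 libraries, 43.8% and 0% with the limits of 2 and 5, 36.8% with the strongest peaks, 45.1% with the 1 kb margin and 56.7% with all RefSeq genes. The share within 1 kb of a gene end was 13.3% in all 3 libraries, 11.6%, 12.5% and 0% with the limits of 1.3, 2 and 5, 13.7% with the strongest peaks, 3.60% with the margin, 10.5% with all RefSeq genes and 4.18% for free-standing regions. The median distance was 11184 bases in all 3 libraries, 41481, 106238 and 334739 with the limits of 1.3, 2 and 5, 38154 with the margin and 10596 with all RefSeq genes. The median at the limit of 5 is the distance of chr9:3000370-3000614, a region of low fold. Linked genes numbered 33, 41, 6, 0, 67 and 550 under the 6 settings, and 546 with links of 10 kb.

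Leaving out each library in turn gave 497 to 2644 regions, 13.5% to 41.0% of distal regions, 41.3% to 53.5% inside a gene, 4.98% to 8.32% within 1 kb of a gene end, median distances of 19343 to 42292 bases and 333 to 1585 linked genes. Without NKX2-1 replicates 1, 2 and 3 the number of regions was 843, 589 and 497, because both remaining libraries then had to cover a stretch. With no replicate block the paired differences in position and H3K4me3, −4.88, 4201 and −1.19 by construction as before, had exact permutation p of 0.3, 0.4 and 0.7. The difference inside a gene was −7.42 percentage points without NKX2-1 replicate 1, −3.23 without replicate 2 and −4 without replicate 3, and the difference in distance was 7882, 1888 and 2833 bases. With the limit of 1.3 they were −3.15 and 4321, with the limit of 2 −6.61 and 20918, and in regions of replicates 2 and 3 −11.3 and 20724. The direction turned in regions of replicates 1 and 3 (0.73 percentage points inside a gene, −3292 bases, 6.51 percentage points with H3K4me3) and of replicates 1 and 2 (−1271 bases). It also turned for H3K4me3 without NKX2-1 replicate 2 (1.04) and with the limit of 2 (4.30), and was −3.49 without replicate 1. The cause was not tested. For the lists with at least 1 linked gene, 136 of 264 counts under the alternatives were within 1.5 times the reported count. The planned motif comparison over whole regions was not run. No IgG background was set beside these weak peaks.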

Other observations

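Values are given here for 6 of the 61 genes with 2 PRDM-free regions, picked after their values were seen and not standing for the rest. Ctsh, which encodes cathepsin H, a protease that acts in surfactant protein processing, had both of its regions in replicates 2 and 3, and 1 PRDM-overlapped distal region. Cavin2, a caveola component gene, had regions of replicates 1 and 3 and of replicates 1 and 2, and 1 PRDM-overlapped region. Col15a1, a basement membrane collagen gene, had 1 region with peaks in all 3 libraries and 3 PRDM-overlapped regions. Nrp2, a semaphorin and VEGF co-receptor gene, had 1 PRDM-overlapped region, and Ptprb, an endothelial phosphatase gene without H3K4me3 at its ends, had 0. Mbnl2, a splicing factor gene, had 8 PRDM-overlapped regions beside its 2 PRDM-free ones.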
